A study of Rattus norvegicus with 2 samples.

Results

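The Bcl2 family decides at the outer membrane of the mitochondrion whether a cell starts its own death programme. Here 10 of its genes were followed in cultured cells of diabetic rats, labelled as muscle stem cells. They were taken by their exact symbol in the deposited table: the death-blocking genes Bcl2, Bcl2l1 and Mcl1, the pore-forming genes Bax and Bak1, and the genes Bcl2l11, Bid, Bad, Bbc3 and Pmaip1. Of the 10, 9 were found among the 18488 genes of the table, and Bbc3 is not analysed here. All 9 were bright enough to be compared, out of 9738 compared genes in all.

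The cells were labelled skeletal muscle stem cells, or MDSC, and came from male obese Zucker fa/fa rats, which lack a working leptin receptor and grow obese and insulin resistant. One sample was labelled early diabetes and the other late diabetes, and both carry the fa/fa genotype, so no lean or non-diabetic control was measured. Each was 1 Affymetrix Rat Gene 1.0 ST array. Both samples carry the same culture text, which names 20% fetal bovine serum and glucose at 5.6 mM or 22 mM. It does not say which glucose level either array had, so stage and glucose cannot be told apart. The age of the rats and the number of rats or wells behind an array are not stated. With 1 array per group there is no spread between cultures or animals, so no p-value, standard error or SD between samples is given and every statement describes these 2 arrays.

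Cells in balance keep the pore formers Bax and Bak1 inactive. Bcl2, Bcl-xL (from Bcl2l1) and Mcl1 are the guardians: they hold Bax and Bak1, or the proteins that wake them, in a bound form. The third group, called BH3-only after the short helix by which its proteins dock into the guardians, reports damage: Bim (from Bcl2l11) answers loss of growth factors, Bid is cut by caspase-8 below death receptors, Bad is held by 14-3-3 proteins while growth factor kinases are active, and Noxa (from Pmaip1) binds mainly Mcl1. When the guardians are overrun, Bax and Bak1 open the membrane, cytochrome c leaves, and Apaf1 and caspase-9 start the cutting of cell proteins. In muscle, satellite cells and myoblasts meet these choices after injury, on withdrawal from the cell cycle and after transplantation. Much of this control acts on the proteins, which an RNA array does not measure.

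The deposited intensities are linear and normalized, with medians over all 29214 probe sets of 187 (early) and 183 (late). They were put on a log2 scale, and a difference is late minus early on that scale. A gene was compared when its brighter value reached log2 8.03, the median of all gene values. A level of log2 6.83 served as background: 95% of the values of the 1200 olfactory receptor genes, both arrays pooled, stayed under it. Late over early, 569 compared genes passed 2-fold upward and 303 downward, or 8.95% in all, and 18.6% passed 1.5-fold in either direction. The only repeated measurement was in the 409 genes with 2 bright probe sets, whose differences had an SD within a gene of 0.22. That covers probe error alone. In RNA of whole cultures, fewer cells of a type and less RNA per cell cannot be told apart.

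The label of the cells was held against its markers. Of 13 muscle stem cell and myoblast markers, 5 were compared. Pax7, the satellite cell factor, stood at log2 7.35 and 7.38, above background but under the floor. Myod1, the myoblast factor, stood at 6.85 early, about at background, and at 6.65 late, under it. These defining transcription factors were thus dim in both arrays. Of 11 fibroblast and mesenchymal markers, 9 were compared, and Vim, a mesenchymal filament gene, reached 14.01 and 13.92. Of 13 white blood cell markers, 2 were compared. Summed over the 13, intensity was 1528 early and 2063 late, while the pan-leukocyte gene Ptprc stayed under background at 5.84 in both. Both compared markers passed 1.5-fold on the higher side, beside 12.1% of all compared genes. Cd68, a macrophage gene, was at least 2.45-fold and Cd14, a receptor gene of monocytes, 1.69-fold higher late. Cd68 read 6.77 early, under background, and 8.12 late, so its late value alone brought it into the comparison. In both arrays 8 of the 13, Ptprc included, lay under background. Csf1r, a macrophage receptor gene under the floor in both, read 7.01 early and 7.91 late, 1.86-fold higher. Cd79a (7.32 and 7.12) and Spi1 (6.87 and 6.71) read lower late. Over all 13 white blood cell markers the median difference was -0.002. The part of such cells in the results was not tested. Of 6 endothelial markers 0 were compared, and of 6 fat cell markers 1 was.

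Of the 9 members, 2 were at least 2-fold apart, where 8.95% of all compared genes were. Bcl2 was 4.11-fold lower and Bcl2l11 was 2.27-fold higher in the late array. At a limit of 1.5-fold, Bid joined on the higher side and Pmaip1 on the lower side. The other 5 members lay within 1.5-fold. Upward, 1 of 9 members passed 2-fold beside 5.84% of all compared genes, and downward 1 of 9 beside 3.11%. At 1.5-fold, 2 of 9 passed upward beside 12.1%, and 2 of 9 downward beside 6.48%. The median difference of the members was -0.03 beside 0.06 for all compared genes.

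Markers of dividing cells stood apart between the arrays that gave these values. All 7 proliferation markers found were compared and passed 2-fold on the late side, beside 5.84% of all compared genes. Their summed intensity was 5423 early and 14840 late. Mki67, the Ki-67 gene, read log2 10.34 and 11.49, and Ccnb1, cyclin B1, read 9.36 and 11.18. Itga7, a muscle cell integrin, read 10.37 and 8.84, and Col3a1, a fibrillar collagen gene, read 11.73 and 10.65. For the 11 fibroblast and mesenchymal markers the summed intensity was 65784 early and 52226 late, with 2 of 9 compared genes higher and 7 lower. For the 13 muscle markers it was 13493 and 12378, with 3 of 5 compared genes higher and 2 lower. Against Itga7, the muscle cell markers Des (7.61 and 8.28) and Sdc4 (11.43 and 12.32) read higher late. Des was under the floor early, so its late value alone brought it into the comparison. Mcam (12.03 and 10.51) read lower late, as Itga7 did, and Ncam1 (11.98 and 12.05) slightly higher. The part of cell division and of cell makeup in the differences of Bcl2, Bcl2l11, Bid and Pmaip1 was not tested.

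**Figure D1:**
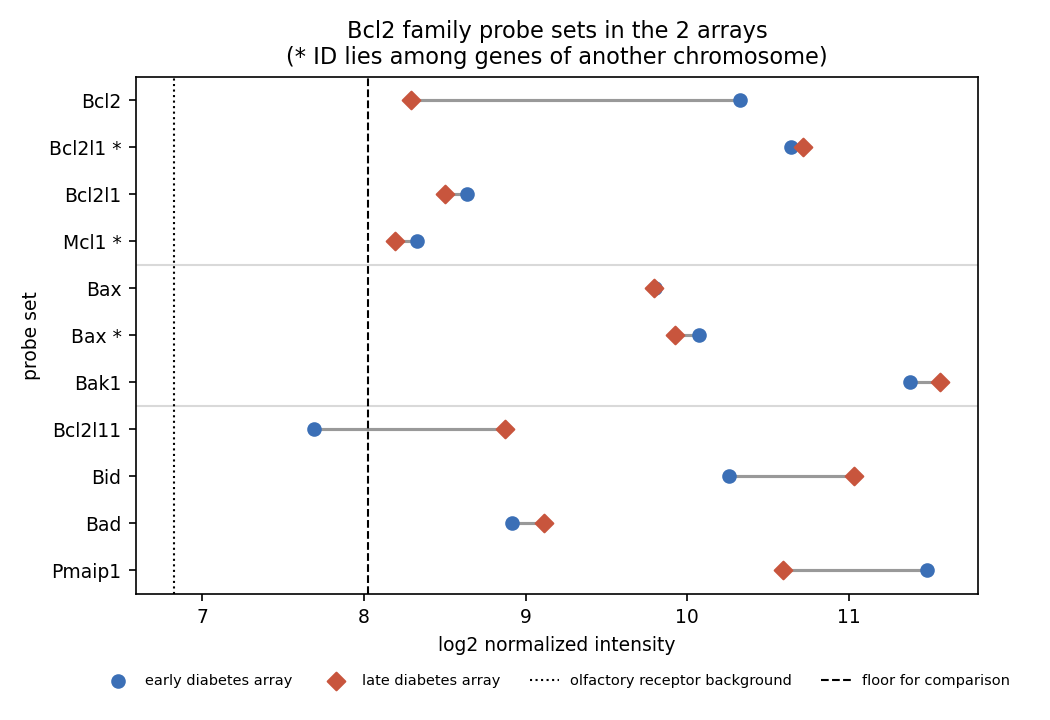
Log2 normalized intensity (x axis) of the 11 probe sets of the 9 members found (y axis), in order death-blocking, pore-forming and BH3-only. Circles are the early and diamonds the late array, 1 array each; the dotted line is the olfactory receptor background (6.83), the dashed line the floor for comparison (8.03), and a star marks a probe set whose ID lies among genes of another chromosome. Bcl2, Bcl2l11, Bid and Pmaip1 have the long bars, and the circle and diamond of the unstarred Bax probe set coincide.

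Among the guardians, Bcl2 gave the largest difference of any member. It read 1286 early and 313 late (log2 10.33 and 8.29). The early value was well above the floor, and the late value lay just over it and still above background. The difference was -2.04, which is 9.19 times the SD between probe sets of a gene. Only 63 compared genes had a lower difference, which puts Bcl2 at place 64 from the bottom of 9738. Of 2752 compared genes with a mean level within 0.5 of that of Bcl2, 21 were lower by at least as much, or 0.763%. Bcl2 has 1 probe set, so no other probe set repeats this value.

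The other guardians showed no difference of this size, but their probe sets need care. Bcl2l1 has 2 probe sets. The brighter read 1599 early and 1681 late, a difference of 0.07, and the dimmer read 398 and 363, a difference of -0.13. The signs were opposite and both differences were smaller than the SD between probe sets. Averaged, Bcl2l1 stood at log2 9.64 and 9.61, a difference of -0.03. Mcl1, the guardian with the shortest-lived protein, read 321 early and 293 late, a difference of -0.13.

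The ID numbers of the probe sets follow genome order closely enough to show where a probe set was placed. For 17685 of 18557 probe sets that could be checked, or 95.3%, the commonest chromosome among genes named by the 30 nearest IDs was that of the probe set's own gene in RefSeq's table of the GRCr8 rat assembly. Of the 11 probe sets of the members, 3 were not so placed. The brighter Bcl2l1 probe set sat among 25 placed neighbours, all 25 of them on chromosome 1, while RefSeq has Bcl2l1 on chromosome 3. Its nearest neighbours on either side were the olfactory receptor genes Or52p2 and Or52m2, and RefSeq lists the pseudogene Bcl2l1-ps1 between the same 2 genes. The dimmer Bcl2l1 probe set had 24 of 27 placed neighbours on chromosome 3. The sole Mcl1 probe set had 14 of 18 placed neighbours on chromosome 3, while RefSeq has Mcl1 on chromosome 2. A pseudogene, Mcl1-ps1, lies within that stretch of chromosome 3, between LOC100362296 and Cst7. By ID order the probe set lies between Syndig1 and LOC100362296, so not between the same 2 genes. The second Bax probe set had 24 of 25 placed neighbours on chromosome 10, while Bax is on chromosome 1, and RefSeq lists no copy named after Bax there. Whether these 3 probe sets bind RNA of the gene, of a copy or of both was not tested. The Mcl1 value is therefore that of a probe set named Mcl1, and the level of Mcl1 itself is uncertain. Without these 3 probe sets Bcl2l1 differed by -0.13 and Bax by -0.00494, and Mcl1 had no value.

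The pore formers lay close together in the 2 arrays. Bax read 892 early and 889 late on the probe set placed with its gene, and 1076 and 970 on the other. Both probe sets lay well above the floor, and averaged they differed by -0.08. Bak1, the pore former that sits in the mitochondrial membrane from the start, read 2655 early and 3023 late, a difference of 0.19. Neither difference reached the SD between probe sets, 0.22.

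The BH3-only genes went both ways. Bcl2l11 read 207 early and 469 late (log2 7.69 and 8.87), the largest difference upward among the members at 1.18. Its early value lay above background but under the floor, so Bcl2l11 entered the comparison through its late value alone. That difference was 5.34 times the SD between probe sets and took place 443 from the top. Of 2185 compared genes of like level, 149 were higher by at least as much, or 6.82%. The dimmest of these genes were likewise compared only where 1 array carried them over the floor, so the filter shapes this share. Bim is made in several splice forms, and 1 value per gene does not tell them apart.

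Bid read 1223 early and 2096 late (log2 10.26 and 11.03). It was 1.71-fold higher in the late array, a difference of 0.78, and lay far above the floor in both. Of 2085 compared genes of like level, 133, or 6.38%, were higher by at least as much. Bad read 484 and 554, a difference of 0.20, smaller than the SD between probe sets.

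Pmaip1 went the other way from Bcl2l11 and Bid. It read 2865 early and 1542 late (log2 11.48 and 10.59), far above the floor in both. It was 1.86-fold lower, a difference of -0.89, and took place 360 from the bottom. Of 1709 compared genes of like level, 60, or 3.51%, were lower by at least as much. The differences of Bcl2l11 and Bcl2 lay 3.22 apart on the log2 scale, and those of Bid and Pmaip1 1.67 apart.

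**Figure D2:**
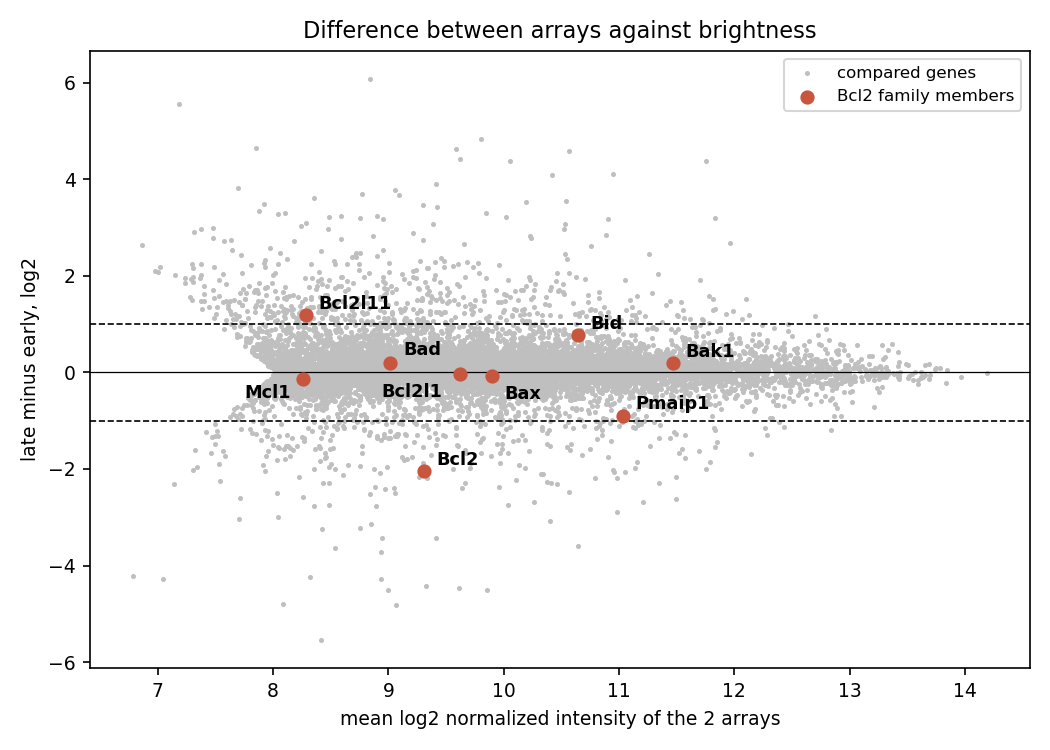
Late minus early difference (y axis, log2) against the mean log2 normalized intensity of both arrays (x axis) for the 9738 compared genes (grey) and the 9 members (red). Dashed lines mark 2-fold; Bcl2 at -2.04 lies under the lower line and Bcl2l11 at 1.18 over the upper one, Bid at 0.78 and Pmaip1 at -0.89 lie inside them at the rim of the grey cloud, and the other 5 members lie near 0.

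By role, 1 of the 3 guardian genes, Bcl2, passed 1.5-fold, on the lower side, beside 6.48% of all compared genes. For the other guardians no direction is given, since the Bcl2l1 probe sets had opposite signs and the Mcl1 value rests on a probe set placed elsewhere. The 2 pore formers had 1 higher and 1 lower value. Of the 4 BH3-only genes found, 3 had the higher value late, as most of all compared genes did. One of these, Bad, differed by less than the SD between probe sets. At 1.5-fold, 2 of the 4 passed upward beside 12.1% of all compared genes, and 1 downward beside 6.48%. Bcl2l11 was compared through its late value alone.

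The promoters of the 4 members at least 1.5-fold apart are shown because these are the genes whose RNA differed between the arrays. Each is the 250 bases before a transcript start in RefSeq's GRCr8 assembly, read 5′ to 3′ on the strand of the gene. A window depends on the start taken, and which starts these cells use was not tested. That build need not be the one behind the array's annotation. Capitals mark matches to 7 motifs searched on both strands: the GC box GGGCGG, the CCAAT box CCAAT, the FOXO motif GTAAACA, the cyclic AMP response element core TGACGT, the E2F motif TTTNNCGC, the AP-1 motif TGANTCA and the TATA box TATAAA. No matches overlapped in these 4 windows.
Bcl2, chr13:23366901-23367150, minus strand: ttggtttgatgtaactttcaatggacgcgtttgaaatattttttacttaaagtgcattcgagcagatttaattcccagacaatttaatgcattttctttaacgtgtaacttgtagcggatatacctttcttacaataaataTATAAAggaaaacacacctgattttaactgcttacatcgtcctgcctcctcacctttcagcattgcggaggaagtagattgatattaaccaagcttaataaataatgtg
Bcl2l11, chr3:135819792-135820041, plus strand: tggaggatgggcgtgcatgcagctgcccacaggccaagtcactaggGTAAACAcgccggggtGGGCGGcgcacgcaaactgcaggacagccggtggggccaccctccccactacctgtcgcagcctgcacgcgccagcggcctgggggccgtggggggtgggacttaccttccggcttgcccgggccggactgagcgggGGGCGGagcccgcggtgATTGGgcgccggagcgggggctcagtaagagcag
Bid, chr4:155808320-155808569, minus strand: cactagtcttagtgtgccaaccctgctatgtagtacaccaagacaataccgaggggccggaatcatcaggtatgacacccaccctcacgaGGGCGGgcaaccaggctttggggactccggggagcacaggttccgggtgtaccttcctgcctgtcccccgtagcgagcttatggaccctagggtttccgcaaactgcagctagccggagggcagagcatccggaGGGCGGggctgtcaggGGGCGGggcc
Pmaip1, chr18:62255720-62255969, plus strand: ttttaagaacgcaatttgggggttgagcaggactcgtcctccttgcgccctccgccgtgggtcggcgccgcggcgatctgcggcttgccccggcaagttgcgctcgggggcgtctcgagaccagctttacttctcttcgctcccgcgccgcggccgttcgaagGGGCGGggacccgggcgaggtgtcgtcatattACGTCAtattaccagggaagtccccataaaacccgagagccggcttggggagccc

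The Bcl2 window was poor in G and C, at 33.6% of bases, beside 72.0% for Bcl2l11, 62.8% for Bid, 64.8% for Pmaip1 and a median of 51.2% over all 33469 RefSeq windows. It held 1 match, to the TATA box motif, that begins 109 bases before the start, and 12.9% of all windows hold that motif. This describes the window at the start taken, and other starts of Bcl2 were not examined. The Bcl2l11 window held a FOXO motif from base 204 to base 198 before the start, found in 3.21% of all windows, besides 2 GC boxes and a CCAAT box on the opposite strand. The FOXO motif was also found for Bad, a member within 1.5-fold. Bim is a known target of the Foxo factors. The Bid window held 3 GC boxes, a motif of 30.5% of all windows. The Pmaip1 window held a GC box and, on the opposite strand, a cyclic AMP response element core from base 55 to base 50 before the start, a motif of 6.95% of all windows. AP-1 and E2F motifs had no match in these 4 windows. Among other members within 1.5-fold, Bak1 and Mcl1 had a GC box, and Bcl2l1 had a CCAAT box and an E2F motif. A match is a string of letters, and no binding was measured.

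Factors known to act on these genes were read in the same arrays, from a list of 19, of which 16 were compared. E2f1, the cell cycle factor, read log2 8.49 early and 9.78 late, 2.45-fold higher. Jun, the AP-1 subunit, was 1.76-fold higher. At 1.5-fold, 2 of the 16 factors passed upward beside 12.1% of all compared genes, and 0 of 16 downward beside 6.48%. The median difference was 0.18 over the 16 and 0.04 over all 19, beside 0.06 for all compared genes. The Foxo gene Foxo3 read 9.67 and 9.61 and Foxo1 read 8.88 and 9.18, so neither passed 1.5-fold. The stress factor gene Ddit3 read 9.32 and 9.05, and Atf4, which acts with it, read 11.71 and 11.23. These are RNA levels and do not give the activity of a factor.

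The rest of the family added no large difference. Of 12 other Bcl2 family genes found, 6 were compared, and all 6 read higher late than early, with a median difference of 0.34. Most of all compared genes also read higher late, with a median of 0.06. Over all 12 family genes, dim ones included, the median was 0.05. The differences of Bcl2l12, Bcl2l13 and Bnip3l were smaller than the SD between probe sets. Bok, a relative of Bax and Bak1, was 1.59-fold higher (9.75 to 10.42) and was the 1 gene of the 6 past 1.5-fold. Upward, 12.1% of all compared genes passed that limit. Bnip3, a hypoxia-induced gene of mitochondrial removal, read 11.83 and 12.38, and its relative Bnip3l read 12.23 and 12.43. Bcl2l2, which encodes the guardian Bcl-w, read 8.63 and 9.11, a difference of 0.48 and of opposite sign to Bcl2. Bcl2l12 read 8.90 and 9.10 and Bcl2l13 read 9.11 and 9.18. The BH3-only gene Bmf read 8.01 and 7.63, just under the floor. Bik and Hrk, both BH3-only, and Bcl2l10, Bcl2l14 and the gene listed as RGD1562344, now Bcl2l15, were under background in both arrays.

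Of 20 pore and apoptosome genes, which act with or downstream of the family, all 20 were compared. At 1.5-fold, 2 of 20 passed upward beside 12.1% of all compared genes, and 0 of 20 downward beside 6.48%. The median difference was 0.05 beside 0.06 for all compared genes. Ppif, the cyclophilin of the mitochondrial permeability pore, was the higher of these at 1.63-fold (9.50 to 10.21). Cycs, cytochrome c, read 12.30 and 12.42. Apaf1, its partner, read 9.76 and 9.90. Casp9, the caspase they activate, read 8.33 and 8.70. Of 4 inhibitor of apoptosis genes found, 2 were compared, and Xiap, which blocks caspase-9, read 8.41 and 8.88.

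Of 29 compared genes whose proteins act on Bcl2 family proteins, directly or through other proteins, 26 lay within 1.5-fold. Upward, 2 of 29 passed it beside 12.1% of all compared genes, and downward 1 of 29 beside 6.48%. The median difference was 0.10 beside 0.06 for all compared genes. Trib3, a stress-induced inhibitor of Akt, was 2.04-fold lower (8.86 to 7.84). Cflar, which holds back caspase-8 and so the cutting of Bid, was 1.61-fold higher (10.10 to 10.79), and Casp8 read 9.32 and 9.36.

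**Figure D3:**
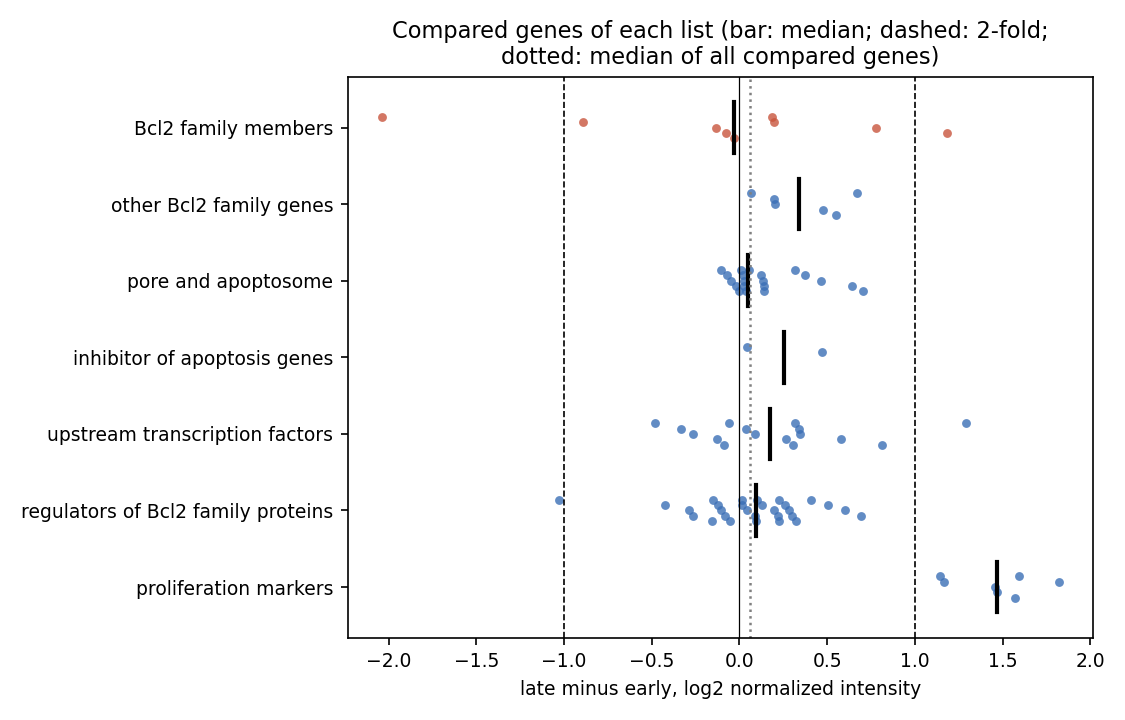
Late minus early difference (x axis, log2 normalized intensity) of each compared gene of the members (red) and of 6 other lists (blue), 1 point per gene, with the list's median as a black bar. The 5 other apoptosis lists drawn have medians between 0.05 and 0.34 over compared genes, the members spread from -2.04 to 1.18, and the 7 proliferation markers all lie beyond the dashed 2-fold line on the higher side.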

How the data were processed

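RNA of 2 samples was measured, 1 array each. The authors deposited normalized intensity values, 1 per probe set and array, in 2 tables that held identical values for all 29214 probe sets. How they corrected background, summarised probes and normalized, and with which software and build, was not given in the sources used here. The values look like antilogs of log2 numbers rounded to 6 decimals.

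From these, log2 values were computed with nothing added. The 20162 probe sets that named 1 gene were used; 328 named several, 8696 none and 28 a symbol damaged by a spreadsheet. Probe sets of a gene were averaged. With 1 array per group, no test was made, and calls are folds of 2 or 1.5. Array number limits the precision. Named genes are the members, the other family genes, the 2 highest and 2 lowest genes of each list if 1.5-fold apart, and 10 fixed genes; a few further factors, relatives and markers are quoted besides. Foxo1, Atf4, Casp8 and the markers were picked from the lists after their values were seen, as were the promoter motifs. Some genes and 1 apoptosis list that the rule allows are not reported here; that list had a median difference of -0.11, with 11 of 16 compared genes lower and 5 higher. The members and lists were chosen with earlier results of these data known. List genes not found under their own symbol were matched through older names in RefSeq's table. Promoters come from RefSeq (8 of 10 members have an entry). Alternatives were other filters, normalizations, probe set rules, a pseudocount of 16 and other fold limits. The calculations were tested on simulated data. Python 3.11.15, numpy 2.4.6, pandas 2.3.3, statsmodels and matplotlib were used.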

Additional observations from a re-analysis of the deposited data

How the results depend on the processing

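The count of 2 members at least 2-fold apart stayed at 2 under no filter, the background filter, median centring, quantile normalization, subtraction of a lowess trend (span 0.3), the brightest probe set, a pseudocount of 16 and the other table. With the floor at the 75th percentile, 5 members were compared (Bcl2, Bax, Bak1, Bid and Pmaip1), so Bcl2l11 was not, and the count was 1 at 2-fold and 1 at least 1.5-fold higher. With the limit at 1.5-fold the count was 4, and with a still smaller limit it was also 4. Over 85 recalculated differences of single members, 0 moved by more than the probe set SD and 0 changed the direction of a member past 1.5-fold. Part of this was fixed in advance. A filter or the other table, with identical values, leaves a member's difference unchanged. The probe set rules could alter the differences of Bcl2l1 and Bax alone. The count of 2 could likewise not change with a lower filter or the other table. Bcl2 ranged from -2.11 to -1.98, Bcl2l11 from 1.12 to 1.19, Bid from 0.70 to 0.78 and Pmaip1 from -0.96 to -0.89. Bcl2l1 ranged from -0.13 to 0.07, and its sign turned with the brightest probe set. An alternative chosen after seeing the data left out the 3 probe sets placed on another chromosome. It kept the count at 2 and gave a median of 0.09 over 8 members in place of -0.03. No paired analysis was possible because each group has 1 array, and for the same reason no replicate could be left out. Dim values limit Bcl2l11 most, since its early value lay 0.86 above background.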

Other observations

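Of the 98 other genes found on all the apoptosis lists, the 1 not described included, 4 had a probe set whose neighbours by ID lie on another chromosome than the gene, and 0 had such probe sets alone, as the member Mcl1 did. The 4 were Bnip3, Cycs, Diablo and Vdac1. In each, the probe sets gave close differences: 0.54 and 0.56 for Bnip3, 0.10, 0.11 and 0.15 for Cycs, -0.01 and 0.01 for Diablo, and 0.02, 0.01 and 0.01 for Vdac1. For Cycs, Diablo and Vdac1 every difference was smaller than the SD between probe sets, so their closeness cannot tell what each probe set measures. Which RNA these probe sets bind was not tested.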
